A study of Mus musculus with 6 samples.

Results

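The genes described here are 8 potassium channel genes of the mouse pancreatic islet, taken by name from the 40840 genes of a read count table. They are Kcnj11 and Abcc8, which encode the ATP-sensitive (KATP) channel, and Kcnk16, Kcnk3, Kcnma1, Kcnh6, Kcnj6 and Kcnq1. All 8 were in the table and all 8 passed the filter on low counts. RNA was sequenced from islets of KO mice (3 libraries) and WT mice (3 libraries), both on a C57BL/6J background, in a series on the role of IGF2R in beta cells. The labels give neither the age nor the sex of the mice, nor the allele, promoter or Cre line behind the KO, nor whether each library stands for its own animal. Every p-value is therefore judged against the spread between libraries, which may be technical.

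The KATP channel couples glucose metabolism to insulin release in beta cells. It is built from equal numbers of Kir6.2 pore subunits (Kcnj11) and SUR1 sulfonylurea receptors (Abcc8). When glucose is metabolised, the rise in ATP relative to ADP closes the channel, the membrane depolarises, voltage-gated calcium channels open and insulin granules fuse. Other potassium channels set how easily the cell depolarises, end each action potential, or silence the cell when an inhibitory hormone acts.

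Total counts ranged from 16689319 to 18956235 in KO libraries and from 16943764 to 18757633 in WT libraries. Igf2r had 49.3, 48.1 and 48.4 CPM (the count scaled to the size of its library) in KO libraries 1, 2 and 3, against 94.98, 128 and 115 CPM in WT libraries 1, 2 and 3, a log2 fold change of -1.21 (SE 0.0946, adjusted p 0.00261 by edgeR's quasi-likelihood test). The transcript was lower, and still present, in all 3 libraries labelled KO. The edgeR call was lost without KO library 1 (adjusted p 0.13), without KO library 2 (0.192) and with the acinar level as a covariate (0.304), at log2 fold changes of -1.22, -1.204 and -1.25; adjusted p ran from 1.62e-82 to 0.304 over the alternatives that gave one. The defining islet markers were all present, and the 8 hormone genes summed to between 183700 and 202200 CPM in KO and between 161600 and 189900 CPM in WT. Within this sum Ins1 was lower in KO (24340 CPM, against 35050 CPM in WT) and Ins2 higher (113100 CPM, against 90070 CPM in WT). KO and WT were separate for 5 of the 8 hormone genes, 4 higher and 1 lower in KO, against 15.7% of all tested genes. By edgeR 0 of the 8 hormone genes were called. Transcripts of acinar cells, the exocrine neighbours of the islet, set 2 WT libraries apart. The 30 acinar genes summed to 1090, 2838 and 980 CPM in KO libraries 1, 2 and 3, against 17960, 19190 and 3103 CPM in WT libraries 1, 2 and 3, with 1 of the 30 at 3 counts or fewer in every library. All 28 tested acinar genes had negative log2 fold changes, 26 at an unadjusted p under 0.05 and 0 called by edgeR. Every KO sum lay below every WT sum, so acinar content and genotype cannot be told apart in these libraries. The acinar alternatives named below show how far a value moves with the setting. The part of acinar transcripts in the channel values was not tested.

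The genes lie on 5 chromosomes of GRCm38. Kcnj11 (ENSMUSG00000096146.2, chromosome 7, 46093953 to 46100764) and Abcc8 (ENSMUSG00000040136.10, chromosome 7, 46104523 to 46180033) are neighbours on the minus strand, 3758 bases apart. Kcnk16 (ENSMUSG00000023387.8, 20261376 to 20269199) and Kcnma1 (ENSMUSG00000063142.15, 23289431 to 24014491) both lie on the minus strand of chromosome 14. Kcnk3 is on the plus strand of chromosome 5 (ENSMUSG00000049265.7, 30588170 to 30625271), and Kcnh6 on the plus strand of chromosome 11 (ENSMUSG00000001901.15, 106008124 to 106034549). Kcnj6 is on the minus strand of chromosome 16 (ENSMUSG00000043301.16, 94748636 to 94997701). Kcnq1 is on the plus strand of chromosome 7 (ENSMUSG00000009545.14, 143106362 to 143427042), and the long noncoding transcript Kcnq1ot1 (143203458 to 143296549) runs through it on the other strand.

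RefSeq start windows on GRCm38.p6, 250 bases before to 50 after the start, were matched for 4 of the 8 genes, Kcnk16, Kcnh6, Kcnma1 and Kcnj6, and for Kcnq1ot1. Those of Kcnk16, Kcnh6 and Kcnma1 are shown because the first 2 of these genes are among the highest channel transcripts of the islet and because the 3 windows differ in CpG content. That of Kcnq1ot1 is shown because it starts inside Kcnq1, in 0 bases of annotated Kcnq1 exon. Capitals mark CpG dinucleotides, and each sequence reads 5′ to 3′ on the strand of its gene.
Kcnk16, chr14:20269220-20269519, minus strand: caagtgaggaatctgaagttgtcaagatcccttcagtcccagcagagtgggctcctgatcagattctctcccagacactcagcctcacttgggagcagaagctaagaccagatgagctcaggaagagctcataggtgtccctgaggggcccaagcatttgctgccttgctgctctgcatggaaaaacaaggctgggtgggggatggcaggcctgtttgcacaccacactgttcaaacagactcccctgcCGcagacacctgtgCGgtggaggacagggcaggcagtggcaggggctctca
Kcnh6, chr11:106007898-106008197, plus strand: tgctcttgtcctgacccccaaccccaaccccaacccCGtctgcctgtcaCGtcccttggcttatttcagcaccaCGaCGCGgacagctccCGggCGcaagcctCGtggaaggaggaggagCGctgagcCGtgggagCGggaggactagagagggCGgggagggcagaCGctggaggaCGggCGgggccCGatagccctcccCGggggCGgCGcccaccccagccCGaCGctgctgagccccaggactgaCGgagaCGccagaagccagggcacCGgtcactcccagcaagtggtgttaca
Kcnma1, chr14:24004156-24004455, minus strand: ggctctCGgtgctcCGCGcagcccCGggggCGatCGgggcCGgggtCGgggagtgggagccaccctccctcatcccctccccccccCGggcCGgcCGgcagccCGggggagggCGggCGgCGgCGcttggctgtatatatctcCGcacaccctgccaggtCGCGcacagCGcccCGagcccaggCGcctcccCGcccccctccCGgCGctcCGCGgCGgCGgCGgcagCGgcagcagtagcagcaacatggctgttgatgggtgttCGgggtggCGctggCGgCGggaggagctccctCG
Kcnq1ot1, chr7:143296498-143296797, minus strand: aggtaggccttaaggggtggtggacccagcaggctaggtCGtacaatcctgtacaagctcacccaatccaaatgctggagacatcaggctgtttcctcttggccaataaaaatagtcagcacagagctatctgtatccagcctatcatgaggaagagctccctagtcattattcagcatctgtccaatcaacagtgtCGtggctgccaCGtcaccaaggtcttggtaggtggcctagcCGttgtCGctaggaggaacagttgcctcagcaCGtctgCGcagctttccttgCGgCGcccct

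The Kcnk16 window held 2 CpG, and 23.3% of 32851 windows of the same length held as few or fewer. The Kcnh6 window held 24 and the Kcnma1 window 36 CpG, counts reached by 20% and 6.2% of windows, and the Kcnq1ot1 window held 9, against a median of 7 over all windows. The E-box CANNTG, the motif of basic helix-loop-helix factors such as NeuroD1, was searched on both strands and reads the same on each. It occurred 5 times in the Kcnk16 window, once in that of Kcnh6 and 3 times in that of Kcnq1ot1, and was not in the Kcnma1 window. At least 1 E-box was in 72.3% of all windows, and at least 5 were in 2.1%. The forkhead core TGTTTAC, read as GTAAACA on the other strand, was in none of these 4 windows or the Kcnj6 windows, and in 3.6% of all windows. These matches describe letters and not sites of binding.

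None of the 8 genes passed the test between KO and WT islets, and their fitted log2 fold changes ran from -0.66 for Kcnq1 to 0.16 for Kcnj11. By edgeR's quasi-likelihood test, 0 of 8 were called at an adjusted p under 0.05, against a background of 0.0123% of the 16240 genes tested (2 genes). At an unadjusted p under 0.05 there were 2 of the 8, Kcnj11 on the higher and Kcnq1 on the lower side, against 11.0% of all tested genes. DESeq2 and limma-voom also called 0 of them, with 5 of the 8 given an adjusted p by DESeq2. Taking the column number as a replicate block raised the count over all genes to 30 and left it at 0 for the 8 genes. The 8 log2 fold changes had a median of -0.0094, with 4 positive and 4 negative, beside a median of 0.00 over all tested genes. In 2 of the 8 genes the 3 KO values were separate from the 3 WT values, which held for 15.7% of all tested genes. Kcnj11 was the 1 of 8 with KO above WT (8.02% of all tested genes), and Kcnq1 the 1 of 8 with KO below WT (7.69%). Lower levels in bulk islet RNA cannot be told apart from fewer cells of the type that expresses a gene.

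**Figure D1:**
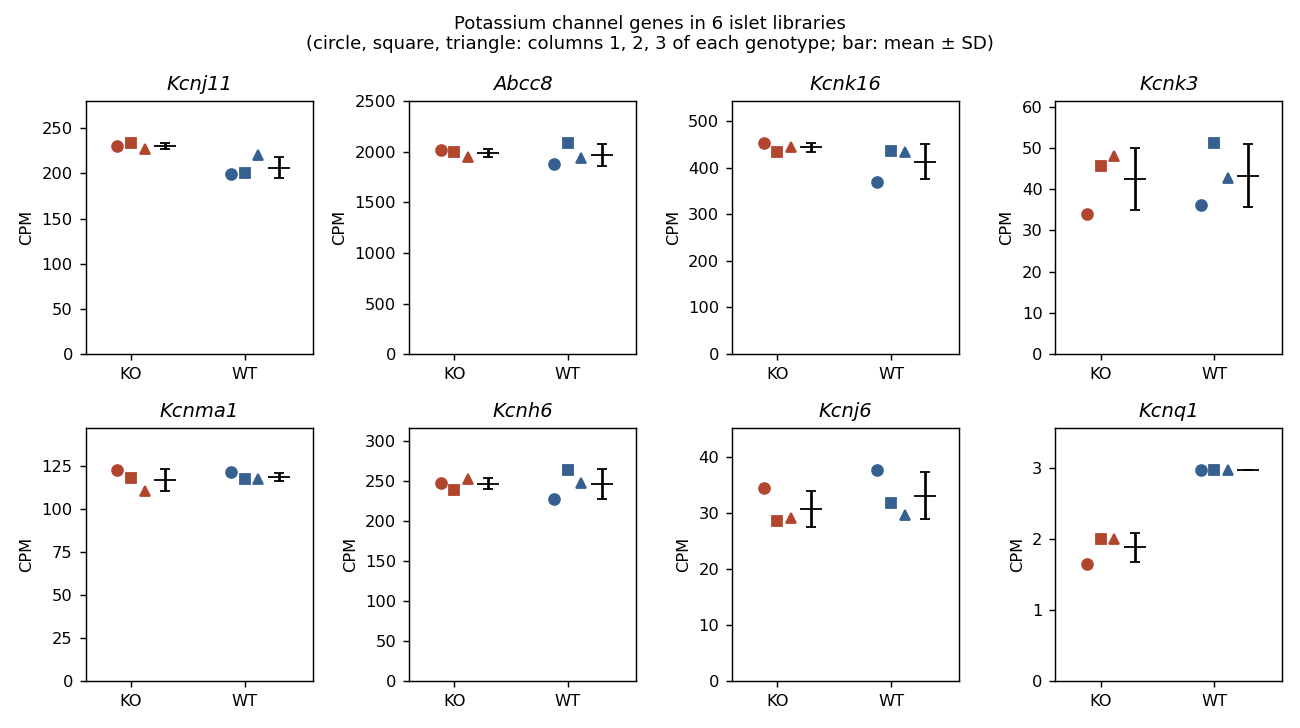
CPM of the 8 channel genes (vertical axes, each starting at 0) in KO and WT islets; each point is 1 library, and the bar beside each group is the mean ± SD (n = 3). The groups separate for Kcnj11 (lowest KO library 227 CPM, highest WT library 220.1 CPM) and Kcnq1 (highest KO library 2.004 CPM, lowest WT library 2.97 CPM), and overlap for the other genes.

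The pore subunit gene of the KATP channel came first. Kcnj11 had 229.9, 234 and 227 CPM in KO libraries 1, 2 and 3, against 199, 199.9 and 220.1 CPM in WT libraries 1, 2 and 3. All 3 KO libraries lay above the WT libraries, and WT library 3 came closest. The means were 230.2 ± 3.3 CPM in KO and 207 ± 11.8 CPM in WT (SD, n = 3 each). The log2 fold change was 0.16 (SE 0.0588, 95% interval 0.03 to 0.28), or 11.5% higher, with an unadjusted p of 0.0146 and an adjusted p of 0.36 by edgeR's quasi-likelihood test. Over the alternatives the adjusted p ran from 0.0975 with DESeq2 to 0.9998 with the acinar covariate. With WT libraries 1 and 2 left out, the libraries with the most acinar transcript, the log2 fold change was 0.06, and it was also 0.06 with the acinar level as a covariate. With the acinar genes removed from the table before scaling it stayed at 0.16.

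Abcc8 encodes SUR1, the regulatory subunit that binds magnesium nucleotides and sulfonylurea drugs. It had 2019, 1998 and 1949 CPM in KO libraries 1, 2 and 3, against 1878, 2087 and 1943 CPM in WT libraries 1, 2 and 3. The KO libraries lay within the range of the WT libraries. Means were 1989 ± 36.4 CPM in KO and 1969 ± 107 CPM in WT (SD, n = 3 each), which gave a log2 fold change of 0.01 (SE 0.0493) and an adjusted p of 0.938 by edgeR. Its 95% interval, -0.09 to 0.12 on the log2 scale, spans a change of -5.93% to 8.45%.

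Because both subunits enter the channel in equal number, their ratio was compared within each library, where the scaling cancels. Per base of annotated exon, the Kcnj11 to Abcc8 ratio was 0.2505, 0.257 and 0.256 in KO libraries 1, 2 and 3, against 0.234, 0.211 and 0.249 in WT libraries 1, 2 and 3. KO libraries were all higher than WT libraries, although the 95% Clopper-Pearson interval of KO library 1 (0.243 to 0.259) overlapped that of WT library 3 (0.241 to 0.258). Such intervals cover counting error only. The mean ratio was 0.255 ± 0.00363 in KO and 0.231 ± 0.0194 in WT (SD, n = 3 each), and a two-sided exact permutation test gave p = 0.1, which is the lowest value possible for 3 against 3 libraries. Against WT library 3 alone the difference was 0.00538, against 0.0235 with all libraries. The ratio sets messenger RNA levels side by side and depends on the annotated length: scaled by the longest transcript of each gene it was 0.177, 0.182 and 0.181 in KO libraries and 0.165, 0.149 and 0.176 in WT libraries.

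**Figure D2:**
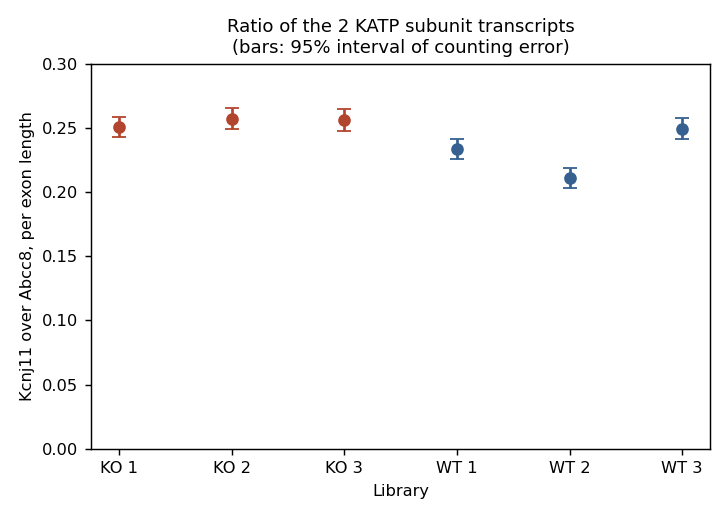
Ratio of Kcnj11 to Abcc8 per base of exon (vertical axis, from 0) in each KO and WT library; bars are 95% Clopper-Pearson intervals of counting error. The KO libraries sit between 0.2505 and 0.257, and the WT libraries between 0.211 and 0.249.

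The vascular relatives of the KATP subunits, Kcnj8 (Kir6.1) and Abcc9 (SUR2), gave no call. Kcnj8 was at 2.56 ± 0.29 CPM in KO and 2.31 ± 0.317 CPM in WT, and Abcc9 at 14.1 ± 0.737 CPM in KO and 13.7 ± 2.24 CPM in WT (SD, n = 3 each). Their adjusted p values were 0.841 and 0.934 by edgeR. The 10 markers of mural cells, the vessel-wall cells known to carry these subunits, summed to between 429 and 453 CPM in KO and between 396 and 439.8 CPM in WT, with 2 of the 10 at 3 counts or fewer in every library.

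Among the tandem-pore (K2P) channels, which pass a background current at rest, Kcnk16 had 187 CPM per kilobase of exon in KO and 174 in WT, and Kcnk3 10.7 in KO and 10.9 in WT. Kcnk16 encodes TALK-1, an islet channel that restrains calcium entry in mouse beta cells. It had 453, 434 and 444 CPM in KO libraries 1, 2 and 3, against 369, 435 and 435 CPM in WT libraries 1, 2 and 3. Only WT library 1 stood below the others, and the groups overlapped. The means were 444 ± 9.5 CPM in KO and 413 ± 37.9 CPM in WT (SD, n = 3 each), and the log2 fold change 0.10 (SE 0.0645, 95% interval -0.03 to 0.24, edgeR adjusted p 0.571). Without WT library 1 it was 0.03, and with the acinar covariate -0.0017. On the side of lower coordinates the nearest tested gene to Kcnk16 was Kcnk5, 79.6 kb away, which encodes a related K2P channel. Kcnk5 had 2.43 CPM in KO and 2.81 CPM in WT.

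Kcnk3, the gene of the acid-sensitive channel TASK-1, had 33.9, 45.6 and 47.97 CPM in KO libraries 1, 2 and 3, against 36.1, 51.2 and 42.6 CPM in WT libraries 1, 2 and 3. Library 1 was the lowest of each genotype, so the spread within a genotype was larger than the difference between them. The coefficient of variation over 3 libraries was 17.7% in KO and 17.5% in WT, the highest of the 8 genes. The log2 fold change was -0.03 (SE 0.194), and its 95% interval of -0.53 to 0.48 allows a change of -30.9% to 39.4%. The adjusted p was 0.971 by edgeR. With the column number as a replicate block the SE was 0.0666 and the interval -0.17 to 0.11, a change of -11.1% to 8.28% (edgeR adjusted p 0.892). In the unblocked fit the sign turned when WT library 2 (0.11) or KO library 1 (0.11) was left out.

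The calcium- and voltage-activated channel is encoded by Kcnma1, the BK pore gene, whose current helps to end the action potential. Kcnma1 had 123, 118 and 110.3 CPM in KO libraries 1, 2 and 3, against 122, 117 and 117 CPM in WT libraries 1, 2 and 3. The groups overlapped, with KO library 3 the lowest of the 6. Its log2 fold change was -0.02 (SE 0.0545, 95% interval -0.13 to 0.09, edgeR adjusted p 0.926), with a positive sign of 0.02 without KO library 3 and of 0.02 with the acinar covariate. Kcnmb2, which encodes a BK accessory subunit that inactivates the channel, had 109 ± 6.08 CPM in KO and 113 ± 9.05 CPM in WT (SD, n = 3 each; edgeR adjusted p 0.803).

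Kcnh6 encodes ERG2, a voltage-gated channel of the ether-a-go-go-related family. It had 247, 239 and 252 CPM in KO libraries 1, 2 and 3, against 227, 264 and 247 CPM in WT libraries 1, 2 and 3. The 3 KO libraries lay inside the range of the WT libraries. Means were 246 ± 6.73 CPM in KO and 246 ± 18.5 CPM in WT (SD, n = 3 each), and the log2 fold change was 0.0014 (SE 0.0624, 95% interval -0.13 to 0.13, edgeR adjusted p 0.994). Its sign turned under RLE scaling (-9.7e-05). Its relative Kcnh2 (ERG1) stood at 196 ± 7.06 CPM in KO and 199 ± 10.2 CPM in WT (SD, n = 3 each; edgeR adjusted p 0.906).

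Kcnj6 encodes GIRK2, a G protein-gated inward rectifier opened by receptors such as those for somatostatin and adrenaline. It had 34.5, 28.6 and 29.1 CPM in KO libraries 1, 2 and 3, against 37.8, 31.9 and 29.7 CPM in WT libraries 1, 2 and 3. Library 1 was the highest of each genotype, where for Kcnk3 it was the lowest. The log2 fold change was -0.11 (SE 0.09365, 95% interval -0.31 to 0.09, edgeR adjusted p 0.703), and 0.05 with WT libraries 1 and 2 left out. It was -0.00081 without WT library 1 and -0.20 without KO library 1. Kcnj3, which encodes the partner subunit GIRK1, was at 14.5 ± 0.335 CPM in KO and 15.8 ± 1.1 CPM in WT (SD, n = 3 each; edgeR adjusted p 0.661). Kcnj15, the next channel gene along the chromosome, 259.9 kb from Kcnj6, had 0.818 CPM in KO and 1.14 CPM in WT.

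Kcnq1 had the largest difference of the 8 genes and the lowest level. It encodes the voltage-gated channel KvLQT1, and in the mouse it is imprinted, with expression from the maternal allele in the fetus, while Kcnq1ot1 is transcribed from the paternal allele in the opposite direction. Kcnq1 had 31, 35 and 34 counts in KO libraries 1, 2 and 3, against 56, 50 and 54 counts in WT libraries 1, 2 and 3. The groups did not overlap. Scaled, these were 1.65, 2.004 and 2.001 CPM in KO and 2.97, 2.98 and 2.97 CPM in WT. The summed counts were 100 in KO, with an exact 95% Poisson interval of 81.4 to 122, and 160 in WT, with an interval of 136 to 187. The 3 WT libraries lay closer together than counting error alone would place them, since the 50 counts of WT library 2 have an interval of 37.1 to 65.9. The log2 fold change was -0.66 (SE 0.2045, 95% interval -1.09 to -0.23), or -36.7%, with an unadjusted p of 0.00412 and an adjusted p of 0.281 by edgeR's quasi-likelihood test. Over the alternatives the value stayed between -0.71 and -0.57 and the adjusted p between 0.163, with the column number as a block, and 0.9998.

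The transcripts around Kcnq1 gave no call. Kcnq1ot1 had 37.7, 39.6 and 38.1 CPM in KO libraries 1, 2 and 3, against 34.5, 42.0 and 36.8 CPM in WT libraries 1, 2 and 3. The groups overlapped, and the log2 fold change was 0.03 (SE 0.0732) at an adjusted p of 0.928 by edgeR. Kcnq1ot1 shares 121 annotated exon bases with Kcnq1, which is 2.96% of Kcnq1's exon bases, and had many more counts, 2048 in KO and 2025 in WT. The strand setting of the counting step is not given in the sources used here, so some reads in either gene may belong to the other, and their part in the Kcnq1 difference was not tested. Of its protein-coding neighbours, Trpm5, a calcium-activated cation channel gene of beta cells, stood at 238 ± 20.8 CPM in KO and 199 ± 41.0 CPM in WT (SD, n = 3 each; edgeR adjusted p 0.662). Cdkn1c, an imprinted cell cycle inhibitor gene of the same domain, stood at 4.75 CPM in KO and 4.91 CPM in WT (edgeR adjusted p 0.945). In all, the 8 genes had 28 tested neighbours, counting up to 2 on each side, and 0 of these were called by edgeR.

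Levels of different genes were compared as CPM per kilobase of annotated exon. The order over all 6 libraries was Abcc8, Kcnk16, Kcnh6, Kcnj11, Kcnk3, Kcnma1, Kcnj6 and Kcnq1. Abcc8 stood at 246 ± 4.5 CPM per kilobase in KO and 243 ± 13.2 in WT, and Kcnk16 at 187 ± 4.0 in KO and 174 ± 15.9 in WT (SD, n = 3 each). Kcnh6 followed at 69.3 ± 1.9 in KO and 69.2 ± 5.22 in WT, and Kcnj11 at 62.6 ± 0.897 in KO and 56.2 ± 3.22 in WT. They were the closest neighbours in the order: the lowest Kcnh6 library was at 63.84 and the highest Kcnj11 library at 63.53, a gap smaller than the SD of either gene in either genotype. Then came Kcnk3 at 10.7 ± 1.89 in KO and 10.9 ± 1.9 in WT, and Kcnma1 at 6.9 ± 0.371 in KO and 6.99 ± 0.145 in WT. Kcnj6 was at 4.03 ± 0.426 in KO and 4.34 ± 0.55 in WT, and Kcnq1 at 0.46 ± 0.0502 in KO and 0.727 ± 0.00107 in WT. Each gene was higher than the next in all 6 libraries on this scale.

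Among the 93 potassium channel genes of the table that were listed, Abcc8, Kcnk16, Kcnh6 and Kcnj11 held ranks 1 to 4, and Kcnh2 and Kcnmb2 followed at 40.4 and 34.8 CPM per kilobase in KO and 41.1 and 36.0 in WT. Kcnk3, Kcnma1, Kcnj6 and Kcnq1 held ranks 14, 16, 20 and 48. Scaled by the longest annotated transcript instead, an alternative chosen after seeing the data, the means over all 6 libraries kept this order, but 3 neighbouring pairs no longer did so in every library. Kcnh6 was then above Kcnj11 in 5 of 6 libraries, with means of 73.03 for Kcnh6 and 73.27 for Kcnj11 in KO and of 72.97 for Kcnh6 and 65.7 for Kcnj11 in WT. Kcnk3 was above Kcnma1 in 4 of 6 libraries, and Kcnma1 above Kcnj6 in 5 of 6. Kcnma1 has 38 annotated transcripts and 16976 merged exon bases, so its level per kilobase is understated where islets use short forms. Of all 14885 tested genes with a length, Abcc8 ranked at 67, Kcnk16 at 99, Kcnh6 at 366 and Kcnj11 at 465.

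**Figure D3:**
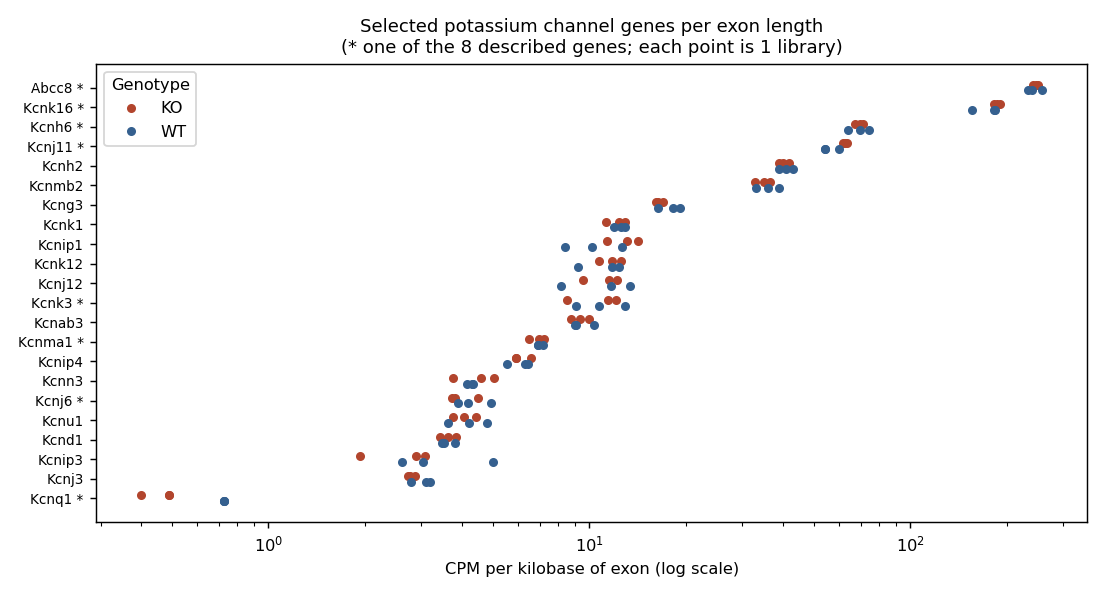
CPM per kilobase of exon (horizontal axis, log scale) for the 8 genes described here and a selection of the other potassium channel genes named in the text, with 1 point per KO or WT library and an asterisk at each of the 8. Kcnip2, Kcna5 and Kcnc2 are among the named genes not shown. Abcc8 and Kcnk16 stand above 150 CPM per kilobase in every library, and Kcnh6 and Kcnj11 between 54.2 and 74.3.

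The 8 genes held most of the channel counts. Their share of all counts in the 93 channel genes was 71.6%, 71.7% and 71.9% in KO libraries 1, 2 and 3, against 70.03%, 72.1% and 71.5% in WT libraries 1, 2 and 3. KO libraries lay within the WT range, and each 95% Clopper-Pearson interval was narrow, such as 71.3% to 71.9% in KO library 1 and 69.7% to 70.4% in WT library 1. The mean share was 71.7 ± 0.156% in KO and 71.2 ± 1.08% in WT (SD, n = 3 each; exact two-sided permutation p 0.7). Of whole libraries, the 8 genes took 0.312%, 0.305% and 0.312% in KO and 0.289%, 0.316% and 0.304% in WT. No length scaling entered these shares. Abcc8 alone held 38026 of the 59170 counts of the 8 genes in KO library 1. In WT library 1 it held 35386 of 54110.

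The other potassium channel genes were read from a list of 86, of which 85 were in the table and 62 passed the filter. By edgeR 0 of the 62 were called, and 4 had an unadjusted p under 0.05, as did 11.0% of all tested genes. The log2 fold changes were positive for 31 and negative for 31, with a median of -0.0034. KO and WT were separate for 6 of the 62, or 9.68%, against 15.7% of all tested genes. By family, the counts of positive and negative values were 5 and 3 for the other inward rectifiers (8 of 12 tested) and 4 and 4 for the other K2P genes (8 of 12). They were 4 and 5 for calcium- and sodium-activated channels, BK accessory subunits and Kcnu1 (9 of 10), and 5 and 9 for the Kv1 to Kv4 families (14 of 17). The other KCNQ and KCNH genes gave 7 and 4 (11 of 11), the silent Kv subunits 0 and 2 (2 of 10), and other accessory subunits 4 and 4 (8 of 12 listed).

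Of those genes, 34 averaged at least 5 CPM, and their log2 fold changes ran from -0.43 (Kcnip3) to 0.68 (Kcnip2), with 26 of the 34 smaller than 0.15 in size. Kcnip3 was at 9.31 ± 2.16 CPM in KO and 12.6 ± 4.54 CPM in WT, with overlapping groups. Kcng3, a silent Kv subunit gene, stood at 55.4 ± 1.49 CPM in KO and 60.1 ± 4.76 CPM in WT (SD, n = 3 each). The SK channel gene Kcnn3 was at 46.8 ± 6.75 CPM in KO and 44.6 ± 1.16 CPM in WT, and the KChIP gene Kcnip1 at 79.9 ± 8.89 CPM in KO and 64.6 ± 13.3 CPM in WT (SD, n = 3 each). Adjusted p for these 3 ran from 0.508 to 0.801 by edgeR.

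Kcnip2, which encodes the KChIP2 accessory subunit of Kv4 channels, had 7.38, 7.16 and 5.003 CPM in KO libraries 1, 2 and 3, against 3.87, 4.17 and 4.18 CPM in WT libraries 1, 2 and 3. The groups did not overlap, and the log2 fold change of 0.68 (SE 0.163) was the largest on the higher side among tested channel genes, with an adjusted p of 0.211 by edgeR. It was called by edgeR without KO library 3 (adjusted p 0.0238) and without a filter on low counts (0.0046), and in no other setting run; DESeq2 gave it no adjusted p, and the others reached 0.9998. Kcna5 (Kv1.5) had 5.84, 6.98 and 7.18 CPM in KO libraries 1, 2 and 3, against 8.12, 9.29 and 8.03 CPM in WT libraries 1, 2 and 3. These groups did not overlap either, with a log2 fold change of -0.35 (SE 0.128) and an adjusted p of 0.351 by edgeR. Kcnc2 (Kv3.2) also had groups that did not overlap, at 6.2 CPM in KO and 7.05 CPM in WT.

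The following genes of at least 5 CPM had overlapping KO and WT values and gave no call. Among inward rectifiers and K2P channels, Kcnj12 stood at 30.4 CPM in KO and 30.4 CPM in WT, Kcnk1 at 27.3 CPM in KO and 27.8 CPM in WT, and Kcnk12 at 23.04 CPM in KO and 21.9 CPM in WT. Of the calcium-activated channels, Kcnn1 was at 11.8 CPM in KO and 12.1 CPM in WT, and Kcnn2 at 7.71 CPM in KO and 6.95 CPM in WT. Kcnu1 was at 15.3 CPM in KO and 15.8 CPM in WT. The A-type and delayed rectifier genes Kcna1, Kcna2, Kcnb2, Kcnc4 and Kcnd1 lay between 7.89 and 26.9 CPM in KO and between 7.46 and 24.3 CPM in WT. The EAG family genes Kcnh1, Kcnh3, Kcnh7 and Kcnh8 lay between 5.64 and 10.9 CPM in KO and between 5.52 and 9.62 CPM in WT. Kcnf1, Kcnab2, Kcnab3 and Kcnip4 lay between 8.61 and 26.9 CPM in KO and between 8.04 and 27.2 CPM in WT.

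**Figure D4:**
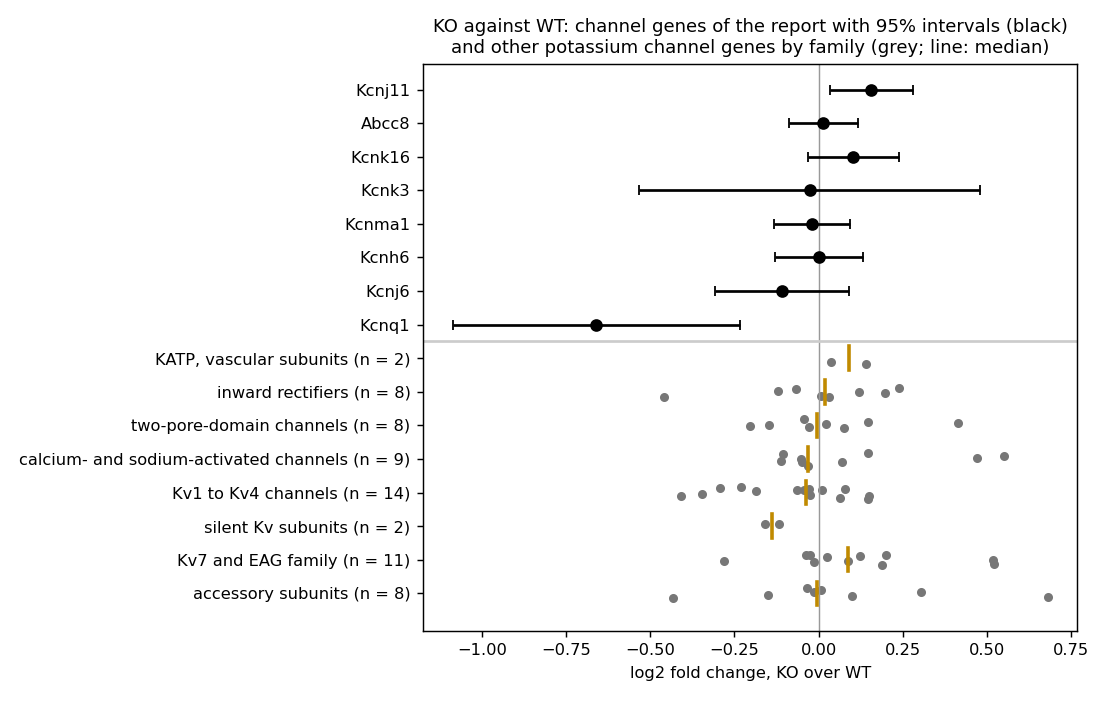
log2 fold change of KO over WT (horizontal axis) for the 8 described genes with their 95% intervals (black) and for the other tested potassium channel genes by family (grey points; line, median). The intervals of Kcnj11 and Kcnq1 exclude 0 before adjustment, and those of the other 6 genes include it.

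The channels work with glucose entry, calcium influx and exocytosis. Of 26 genes of this triggering pathway, all tested, 0 were called by edgeR, 4 had an unadjusted p under 0.05 (11.0% of all tested genes did), and 11 log2 fold changes were positive and 15 negative, with a median of -0.02. KO and WT were separate for 7 of the 26, against 15.7% of all tested genes. Of 12 islet transcription factor genes, 0 were called by edgeR, with 7 positive and 5 negative values. An unadjusted p under 0.05 was found for 6 of the 12, 5 higher and 1 lower in KO, against 11.0% of all tested genes, and KO and WT were separate for 5 of the 12, against 15.7%. The 2 with the lowest p, singled out after their values were seen, were Insm1 and Nkx6-1. Insm1, a zinc finger factor gene of endocrine cells, was at 196 ± 15.3 CPM in KO and 154 ± 12.9 CPM in WT, a log2 fold change of 0.34 (SE 0.0691; SD, n = 3 each; edgeR adjusted p 0.1915). Nkx6-1, a homeobox factor gene of beta cells, was at 181 ± 12 CPM in KO and 155 ± 10.3 CPM in WT, a log2 fold change of 0.22 (SE 0.0639; SD, n = 3 each; edgeR adjusted p 0.2697). Those of highest CPM were Mafa, at 557 ± 50.3 CPM in KO and 564 ± 62.3 CPM in WT, and Pax6, at 505 ± 18.6 CPM in KO and 499.6 ± 22.4 CPM in WT (SD, n = 3 each; edgeR adjusted p 0.949 and 0.945).

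Summed markers of other cells varied less than the summed acinar genes. The summed level of the endothelial list was 1378 to 1481 CPM in KO and 1288 to 1403 CPM in WT, and that of the duct list 688 to 723 CPM in KO and 698 to 825 CPM in WT. Of 9 tested duct genes, 6 had negative and 3 positive log2 fold changes. KO and WT were separate for 3 of the 9, all lower in KO, against 15.7% of all tested genes. Tff2 had the lowest value, -2.82, at 6.22 CPM in KO and 44.0 CPM in WT. Stromal markers summed to between 165 and 227 CPM in KO and between 213 and 216 CPM in WT, macrophage markers to between 250.1 and 260.4 CPM in KO and between 211 and 246 CPM in WT, and neural markers to between 135 and 168 CPM in KO and between 142 and 153 CPM in WT. Every macrophage sum in KO lay above every macrophage sum in WT, so macrophage content and genotype cannot be told apart either. Among the tested members of these 5 lists and of the mural list, edgeR called 0. The part of these cells in the channel values was not tested.

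The pattern over the 6 libraries was then compared gene by gene, as the root mean square difference of log2 CPM centred on each gene's own mean, among 13636 other genes of at least 1 mean log2 CPM. Closest to Kcnj11 were Cd63, a tetraspanin gene (0.0141), Zfp688 (0.0159) and Oaz2, an ornithine decarboxylase antizyme gene (0.0162), where the median gene differed by 0.132. Closest to Abcc8 were 2 adaptor complex genes, Ap3b2 (0.011) and Ap1b1 (0.0127), and Atp13a1, a P-type ATPase gene (0.0128), with a median of 0.107. The 2 KATP subunit genes differed from each other by 0.101. Of the 8 genes, the nearest to Abcc8 was Kcnh6 (0.0418) and the nearest to Kcnj11 was Kcnk16 (0.0772). All genes share the same 6 libraries and their depth, and with so many genes close matches are found for most patterns.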

How the data were processed

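The authors deposited raw counts per gene with 1 column per library. Trimmomatic 0.39, STAR 2.7.10b, featureCounts 2.0.3 and mm10 are named in the submitters' processing notes. Libraries were strand-specific, per the labels' protocols; the sources used here do not give the annotation, the strand setting or the treatment of multimapping reads. KO columns are numbered 1 to 3 and titles 4 to 6, so KO libraries carry column numbers.

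Genes were kept by filterByExpr (minimum count 10, total 15; 16240 genes) and tested KO against WT with edgeR 4.0.16 (TMM, robust glmQLFit, glmQLFTest, two-sided, Benjamini-Hochberg over all tested genes, threshold 0.05). The SE is the log2 fold change divided by the root of F, intervals are unadjusted, and CPM use TMM-scaled sizes of the filtered table. log2 CPM carry a prior count of 2. Alternatives used DESeq2 1.42.0 and limma 3.58.1 in R 4.3.3. Positions, exon lengths and overlaps come from GENCODE M21 (GRCm38), and start windows from RefSeq. On simulated counts the test called 14.6% of genes changed 1.2-fold, 68.75% of those changed 1.5-fold and 83.7% of those changed 2-fold. It called 0.0756% of unchanged genes. A gene without a call may therefore still differ, in some cases by 1.5-fold or 2-fold. The simulated libraries were drawn independently, without the acinar difference or the shared column deviations of these data.

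Libraries with the same column number deviated together (correlations of 0.182, 0.166 and 0.191 over 13637 genes, the highest for each library), a pairing seen in the data and not given by the labels. Deviations were taken from the mean of each genotype, which by itself makes some pairs of columns correlate positively. Whether the libraries were paired was not tested. All replicate pairs differed by more than sampling noise (chi-square over degrees of freedom 4.54 or more). The members and lists were chosen with earlier results of these data known. Named beside the 8 genes are Igf2r, other channel genes of at least 5 CPM, the 2 highest genes of the transcription factor list, and, by pattern, 3 genes each for Kcnj11 and Abcc8; marker lists are given as sums. Kcnq1ot1, Kcnj8 and the neighbours were named for their position or family. Some genes that this rule names are not reported here.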

Additional observations from a re-analysis of the deposited data

How the results depend on the processing

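None of the 8 channel genes was called in any of the 18 alternative fits. The count over all genes, 2, became 272 without a low-count filter, 63 with DESeq2 (which gave an adjusted p to 2547 genes, Igf2r, Kcnk3, Kcnj6 and Kcnq1 not among them), 30 with the replicate block by column number, 1 without robust estimation, 1 with limma-voom and 0 with the acinar covariate, and ran from 0 (without KO library 1 or 2) to 114 (without WT library 3) when 1 library was left out, with 24 without KO library 3 and 1 without WT library 1. The cause was not tested. The block changed no call among the 8 genes and narrowed the interval of Kcnk3 (SE 0.0666 against 0.194). Kcnj11 (0.06 to 0.21) and Kcnq1 (-0.71 to -0.57) kept their sign in all 18 fits. With the acinar covariate the sign turned for Kcnk16 (-0.0017), Kcnk3 (0.0658), Kcnma1 (0.0162), Kcnh6 (-0.0329) and Kcnj6 (0.02285). It also turned for Kcnh6 under RLE scaling (-9.7e-05), and, with WT columns 1 and 2 left out, for Kcnh6 (-0.0087) and Kcnj6 (0.0516). With 1 library left out the ranges were -0.0185 to 0.0587 for Abcc8, -0.1435 to 0.114 for Kcnk3, -0.0554 to 0.0207 for Kcnma1, -0.0538 to 0.05495 for Kcnh6, -0.1992 to -0.00081 for Kcnj6 and 0.0289 to 0.144 for Kcnk16. The difference in the 8 genes' share of channel counts ran from -0.0934 percentage points without WT library 1 to 0.959 without WT library 2. With 1 library left out, the difference in the Kcnj11 to Abcc8 ratio ran from 0.0132 to 0.0325. It was 0.00538 with WT columns 1 and 2 left out. On counts with no length scaling, where the ratio itself is smaller, it was 0.0107. With WT columns 1 and 2 left out, the single WT library is assumed to vary like the KO libraries. Depth limits Kcnq1, with 31 to 35 counts in KO and 50 to 56 in WT.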
